A study of Rattus norvegicus with 218 samples.

Results

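Cckar, Glp1r, Sctr and Lepr are 4 of the receptors for gut hormones and leptin among the 165 genes of a qPCR panel. The panel also holds other gut hormone receptors, among them Cckbr, Ghsr and Glp2r. It was run on vagal motor neurons of rats, taken from the brainstem's dorsal motor nucleus (DMV). The 4 members were chosen by gene symbol, and every member was found in the panel. The choice was made with results of these data in view: Cckar was selected on its share in sham and naive animals and Lepr on its left and right values, so these values are given as a description with no test. Neurons were stained for the neuronal protein NeuN and cut from frozen brainstem sections by laser capture, as single neurons or as small pools, and each sample was measured by microfluidic RT-qPCR. All animals were male Sprague Dawley rats, described as adult. Naive rats (3 animals) had no surgery. Sham rats (4 animals) had ketamine/xylazine anaesthesia and exposure of the femoral vessels with an untied thread. The animal labels number 4 sham rats, while the methods text gives a smaller number for that cohort. RIPC rats (remote ischemic preconditioning, 3 animals) had the same anaesthesia and exposure, with the femoral vessels of both legs tied off and then released, and tissue was taken 2.5 h after reperfusion. Anaesthesia and incision cannot be told apart in a comparison of sham with naive rats.

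The DMV holds the preganglionic parasympathetic neurons of the vagus nerve, most of which release acetylcholine onto ganglia of the gut, pancreas, heart and other organs. Cckar encodes the receptor through which cholecystokinin from the duodenum slows gastric emptying and ends a meal. Glp1r and Sctr encode the receptors for glucagon-like peptide and secretin, close relatives within the same family of G protein-coupled receptors, which mainly raise cyclic AMP. Lepr is of another kind: it encodes the receptor for leptin, the hormone of fat tissue, and signals as a cytokine receptor through a Janus kinase.

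A sample was used when at least 25% of its 168 assays gave a Ct, the PCR cycle at which the signal crosses its threshold, and a gene counts as detected when it has a Ct at all. Of 213 samples 186 were used, 98 single neurons and 88 pools. Naive replicate 3 alone gave 54 of the 98 single neurons. The median sample had a Ct in 69 assays among single neurons and in 96 among pools. The neuronal gene Camk2a was detected in 95 of 98 single neurons and 82 of 88 pools, and Chat, which makes acetylcholine, in 68 single neurons and 72 pools. Gfap, the astrocyte marker, was detected in 79 single neurons and 68 pools. The pools with Gfap were 21 of 24 in naive, 36 of 46 in sham and 11 of 18 in RIPC animals. The part of Gfap-bearing material in the values below was not tested.

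At this limit Cckar was in 21 of 98 single neurons (21.4%, 95% Wilson interval 14.5 to 30.5) and in 42 of 88 pools (47.7%, 37.6 to 58.0). Lepr was in 17 single neurons (17.3%, 11.1 to 26.0) and 31 pools (35.2%, 26.1 to 45.6). Sctr was in 10 single neurons (10.2%, 5.64 to 17.8) and 23 pools (26.1%, 18.1 to 36.2), and Glp1r in 11 single neurons (11.2%, 6.38 to 19.0) and 14 pools (15.9%, 9.72 to 25). The intervals cover counting error alone and treat samples of an animal as independent. With a Ct required in 50% of the assays, 22 single neurons were left, and Lepr was in 12 (54.5%, 34.7 to 73.1), Cckar and Sctr in 7 each (31.8%) and Glp1r in 4 (18.2%). In the order of shares among pools, Cckar overlaps Lepr, Lepr overlaps Sctr, and Sctr overlaps Glp1r in their intervals. All 4 lay below the median gene of the panel, which was detected in 61.4% of pools and 40.8% of single neurons. Cckar ranked 99 of 165 genes by its share of pools and Glp1r 133.

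Naive replicate 3 set part of these shares. Without it, Cckar was in 31.8% and Sctr in 2.27% of the remaining 44 single neurons, against 11.4% for Glp1r and 20.5% for Lepr. Sctr was found in 9 of the 54 single neurons of that animal and in 1 single neuron elsewhere, from RIPC replicate 1. No sham single neuron had Sctr (0 of 16), although 14 of 46 sham pools did.

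Second runs show how repeatable a call was in single neurons, as 5 of the 98 had been run again. Over these 5 neurons and 4 receptors, a Ct was seen in both runs once (Sctr in a neuron of naive replicate 3, at Ct 16.8 and 16.6), in 1 run alone 7 times and in neither run 12 times. Across all assays, 47.2% of the assays with a Ct in either run had one in both (224 of 475). A call in either run was counted as detected here. Over all 213 samples, Ct exceeded 20 in 6 of 64 Cckar values (9.38%), 1 of 25 Glp1r values, 1 of 49 Lepr values and no Sctr value, against 5.07% over all genes.

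Detection by the number of captured neurons is shown in the plot of shares by neurons per sample. Cckar was in 42.3% of samples of 2 to 3 neurons, 52.2% of samples of 4 and 48.7% of samples of 5 or more. Lepr was in 42.3%, 34.8% and 30.8% of the same classes. Between the classes of pools the intervals overlapped for every receptor.

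**Figure D1:**
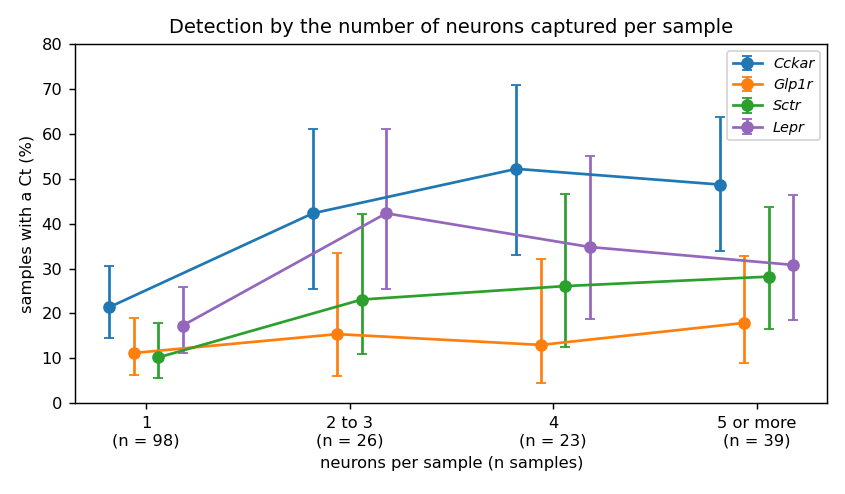
Share of samples with a Ct (percent, vertical axis) for each receptor, by the number of neurons in the sample (horizontal axis, n samples per class); bars are 95% Wilson intervals. Cckar goes from 21.4% of single neurons to 48.7% of samples of 5 or more, while Glp1r stays between 11.2% and 17.9%.

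Pools and single neurons were then compared within animals, over the 8 animals with at least 2 of each. A pool holds more neurons, so a higher share in pools can follow from the cell number for any gene. The part of cell number in these differences was not tested. Lepr was detected in 32.3% ± 16.0 of pools and 16.3% ± 12.2 of single neurons (mean ± SD over animals), a difference of 16.0 percentage points (limma SE 8.19). It was higher in pools in 6 of 8 animals, equal in sham replicate 1 and lower in RIPC replicate 1. The exact two-sided sign-flip permutation p was 0.0469, and limma's Benjamini-Hochberg adjusted p over 124 genes was 0.162. The exact permutation p was 0.0625 without naive replicate 3, 0.0938 without naive replicate 2, sham replicate 2 or 4, or RIPC replicate 2 or 3, and 0.0312 without RIPC replicate 1. It was 0.109 with no limit on samples, and at a limit of 50% of the assays, which leaves 2 animals, the difference was -22.6 points. Sctr was in 23.0% ± 26.6 of pools and 5.21% ± 9.90 of single neurons, with an exact permutation p of 0.188 (limma's adjusted p 0.184).

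Cckar was in 44.3% ± 31.2 of pools and 31.8% ± 18.4 of single neurons (adjusted p 0.452 in limma), and it was higher in pools in 5 animals and lower in 3. Glp1r was in 17.2% ± 23.9 and 12.7% ± 12.5 (adjusted p 0.738), and was higher in pools in 3 animals and lower in 4. At the 50% limit, which leaves 2 animals, the differences were -4.70 points for Cckar, -18.8 for Glp1r and -10.9 for Sctr. Over the whole panel 22 of 124 genes passed (17.7%), all of them higher in pools, and 116 of the 124 differences were above 0. None of the receptors was among the 22. The count of 22 rests on single animals, as it was 5 without naive replicate 3 or without sham replicate 1 and 56 without RIPC replicate 1. Without RIPC replicate 1 Lepr passed, with a difference of 20.1 points and an adjusted p of 0.0454.

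The share of an animal's pools with each receptor differed widely among the animals of a treatment. In a pool, fewer neurons with a transcript and less of it per neuron cannot be told apart. Cckar was in 0 of 3, 2 of 10 and 3 of 11 pools of naive replicates 1 to 3. In sham animals it was in 5 of 7, 1 of 11, 9 of 11 and 13 of 17 pools of replicates 1 to 4. In RIPC animals it was in 1 of 8, 7 of 8 and 1 of 2 pools. Of the sham animals, 3 lay above all naive animals, while sham replicate 2 lay below naive replicates 2 and 3. The group means were 15.8% ± 14.1 in naive (SD, n = 3), 59.7% ± 34.0 in sham (n = 4) and 50% ± 37.5 in RIPC animals (n = 3).

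Cckar's difference of 43.9 percentage points between sham and naive animals (SE 18.6) is a description, as the gene was chosen for it. It was 60.8 points without sham replicate 2. The same difference was 2.09 points when single neurons alone were used. Some animals gave few of these, and Cckar was in 2 of 3 in naive replicate 2 and 1 of 1 in sham replicate 3. Counted by neuron, Cckar was in 9 of 57 naive (15.8%) and 4 of 16 sham single neurons (25%). By pools, RIPC animals were 9.70 points below sham animals (SE 18.6), and 17.1 points above them when pools needed a Ct in 50% of the assays. That difference was -28.5 points without RIPC replicate 2, -26.6 without sham replicate 2 and 9.05 without RIPC replicate 1.

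Glp1r was in no pool of naive replicates 1 and 2 and in 1 of 11 of replicate 3. The sham replicates had it in 3 of 7, 0 of 11, 1 of 11 and 4 of 17 pools. RIPC replicates 1 and 3 had none in 8 and 2 pools, while RIPC replicate 2 had it in 5 of 8. All Glp1r-bearing pools of the RIPC group thus came from 1 animal. The means were 3.03% ± 5.25, 18.9% ± 18.7 and 20.8% ± 36.1 in naive, sham and RIPC animals. The sham minus naive difference of 15.8 points (SE 16.6) had an exact permutation p of 0.343 (limma's adjusted p 0.935), and it was 7.84 points without sham replicate 1. The difference of RIPC minus sham (1.96 points, SE 16.6) had an adjusted p of 0.994. Without RIPC replicate 2 that difference became -18.9 points.

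Sctr was highest in the same animal as Glp1r, RIPC replicate 2. It was in 0 of 3, 0 of 10 and 2 of 11 naive pools, in 3 of 7, 0 of 11, 5 of 11 and 6 of 17 sham pools, and in 1 of 8, 6 of 8 and 0 of 2 RIPC pools. Naive replicates 1 and 2, sham replicate 2 and RIPC replicate 3 were at 0 for both Glp1r and Sctr. With 0 of 11 pools in sham replicate 2, the upper Wilson limit was 25.9%. The means were 6.06% ± 10.5, 30.9% ± 21.1 and 29.2% ± 40.2. The sham minus naive difference was 24.8 points (SE 17.3), with an exact permutation p of 0.171 and an adjusted p of 0.935 in limma. RIPC minus sham was -1.73 points (SE 17.3, adjusted p 0.994), and it was -24.7 points without RIPC replicate 2. At the 50% limit it was 28.3 points (61.1% against 32.8%, adjusted p 0.923).

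Lepr ranged least across the 10 animals, from 12.5% to 54.5% of pools. It was in 1 of 3, 3 of 10 and 2 of 11 naive pools, in 1 of 7, 4 of 11, 6 of 11 and 8 of 17 sham pools, and in 1 of 8, 4 of 8 and 1 of 2 RIPC pools, so that every animal had it. The means were 27.2% ± 7.94, 38.1% ± 17.5 and 37.5% ± 21.7, and the 3 groups overlapped. Sham minus naive was 10.9 points (SE 15.3, adjusted p 0.935 in limma, exact permutation p 0.371), and it ran from 5.40 points without sham replicate 3 to 18.8 without sham replicate 1. At the 50% limit it was -2.25 points (46.7% against 48.9%). RIPC minus sham was -0.56 points (SE 15.3, adjusted p 0.994, exact permutation p 0.943) and 25.6 points at the 50% limit (adjusted p 0.923).

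**Figure D2:**
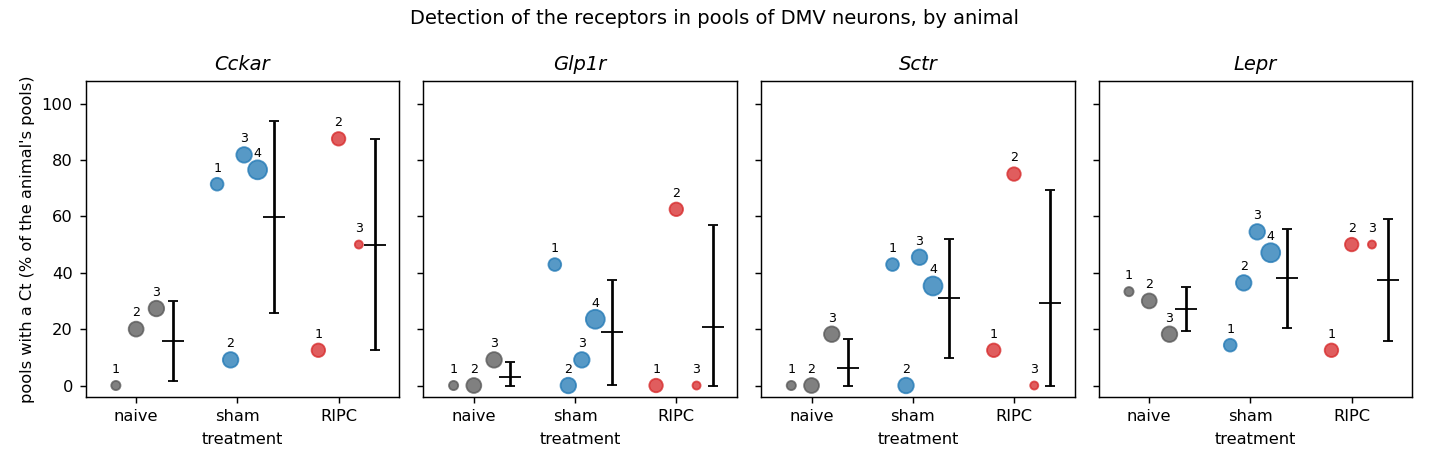
Share of each animal's pools with a Ct (percent, vertical axis) by treatment; each disc is an animal, labelled with its replicate number and sized by its number of pools, and the bars are the mean ± SD over animals, cut at 0. Sham replicate 2 and RIPC replicate 1 lie low and RIPC replicate 2 lies high for Cckar, Glp1r and Sctr, while the 3 treatments overlap for all receptors.

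None of the 119 genes tested passed in either contrast by limma (0% in both), with 2 genes at an unadjusted p under 0.05 for sham against naive and none for RIPC against sham. The contrasts share the sham animals. The smallest exact p for 4 animals against 3 is 0.0286. Of the 119 differences between sham and naive animals 87 were above 0, with a median of 7.87 points, against 15.8 for Glp1r, 24.8 for Sctr and 10.9 for Lepr.

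Yield differed between animals. The mean number of assays with a Ct per pool was 71.7, 84.4 and 99.6 in naive replicates 1 to 3. It was 96, 85.2, 100 and 97.2 in sham replicates 1 to 4, and 65.4, 99.4 and 93.5 in RIPC replicates 1 to 3. The part of yield in the differences was not tested beyond the 50% limit on samples, where the Cckar means were 18.6%, 66.2% and 83.3% in naive, sham and RIPC animals.

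Among single neurons the groups were uneven, with 57 naive, 16 sham and 25 RIPC neurons. Cckar was in 9, 4 and 8 of these, Glp1r in 6, 2 and 3, Sctr in 9, 0 and 1, and Lepr in 8, 2 and 7. In RIPC animals Lepr was in 1 of 4, 2 of 10 and 4 of 11 single neurons. The animal label puts 1 of these 11 neurons, from the right DMV, in RIPC replicate 3, while its title is of the form used for RIPC replicate 2. It had none of the 4 receptors, and without it Lepr was in 4 of 10 single neurons and 1 of 6 right samples of RIPC replicate 3. In sham animals it was in 1 of 7, 0 of 3, 0 of 1 and 1 of 5.

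The level of a receptor where it was detected is given in cycles, as the median Ct of the 35 most widely detected genes in the sample minus the receptor's Ct, so that a value below 0 is a later Ct than those genes have. Levels of different receptors are not set against each other, since each assay has its own primers. Cckar ran from -10.8 to -0.09 in pools with a median of -2.92 (42 values), and from -8.02 to 0.56 in single neurons with a median of -1.13 (21 values). The lowest Cckar pool, at Ct 25.7, was in sham replicate 1, which also held the highest. Glp1r ran from -7.52 to -2.31 in pools with a median of -4.70, and from -5.26 to -0.16 in single neurons with a median of -1.58. Sctr had medians of -3.37 in pools and -1.52 in single neurons, and Lepr of -2.14 and -1.16. The median was thus lower in pools for every receptor. The rest of the panel was not compared in this way, so this is not shown to be particular to the receptors.

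By treatment, the Cckar level in pools had a median of -2.37 in naive (5 pools), -3.23 in sham (28) and -1.24 in RIPC animals (9). Of the 9 RIPC pools, 7 came from RIPC replicate 2. Lepr had medians of -1.50 in naive (6 pools), -1.61 in sham (19) and -3.00 in RIPC animals (6). Averaged per animal, the Lepr level was -2.35 ± 1.49 in naive (SD, n = 3), -2.34 ± 2.19 in sham (n = 4) and -4.71 ± 1.71 in RIPC animals (n = 3), and the groups overlapped. No receptor was detected in at least 2 pools of at least 2 RIPC animals, so none entered the test of levels. With 1 pool per animal accepted, the Lepr level was lower in RIPC than in sham animals (difference -2.37 cycles, SE 1.19, adjusted p 0.933 in limma). With single neurons and pools together it was -1.27 cycles (SE 0.56, adjusted p 0.988).

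**Figure D3:**
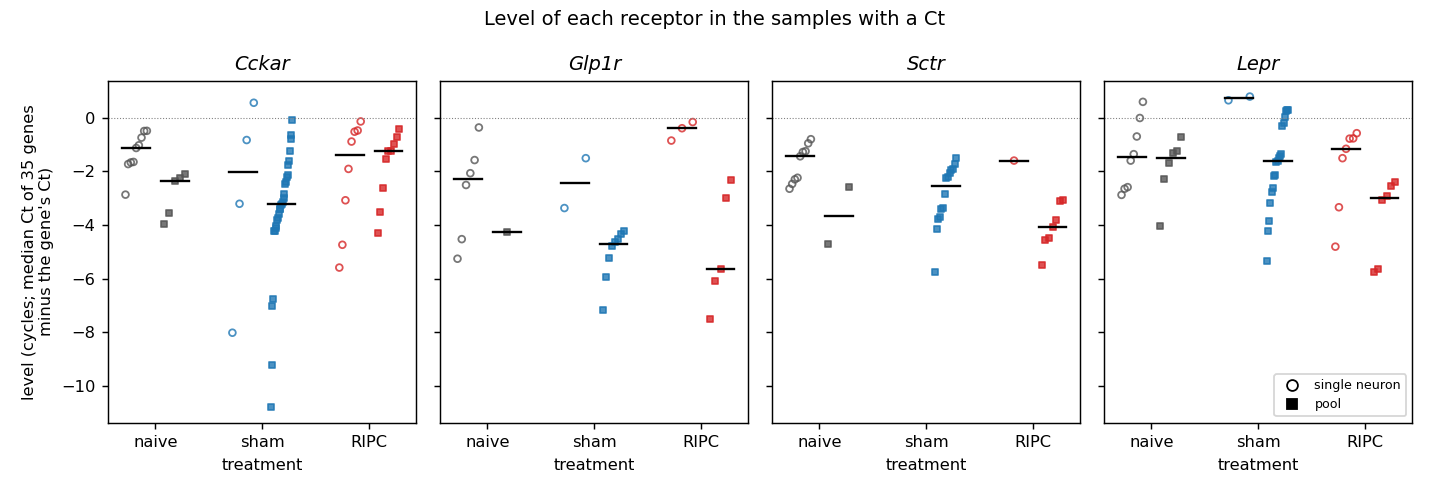
Level of each receptor in the samples where it has a Ct (vertical axis, cycles relative to the median Ct of 35 widely detected genes; higher is an earlier Ct) by treatment; open circles are single neurons, filled squares are pools, and lines are medians. Cckar reaches down to -10.8 in sham pools, and most values of all receptors lie below 0.

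Left and right DMV were compared within the 9 animals with at least 2 samples on each side, single neurons and pools together. Over all 10 animals Lepr was on the left in 33 of 99 samples and on the right in 15 of 87. Naive replicate 1, with 1 of 2 left and 0 of 1 right samples, was not among the 9. In naive replicate 3 it was in 10 of 33 left and 0 of 32 right samples, and the upper Wilson limit on the right was 10.7%. RIPC replicate 3 had it in 4 of 6 left and 1 of 7 right samples, sham replicate 4 in 6 of 12 and 3 of 10, and naive replicate 2 in 2 of 7 and 1 of 6. Sham replicate 1 had 0 of 6 left and 2 of 8 right samples, and RIPC replicate 2 had 3 of 12 and 3 of 6. Sham replicates 2 and 3 and RIPC replicate 1 had equal shares on both sides.

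The animal means of Lepr were 32.9% ± 19.9 left and 25.7% ± 16.4 right (SD over 9 animals), a difference of 7.18 points. It ran from 1.53 points without RIPC replicate 3 to 11.2 without sham replicate 1 or RIPC replicate 2. At the 50% limit, with 7 animals, the difference was 40.1 points and none of these 7 was higher on the right. Sham replicate 1, higher on the right at the main limit, was not among the 7, with 0 of 1 left and 1 of 4 right samples. Sides held few samples there, such as 2 of 2 left and 1 of 3 right in RIPC replicate 3. The Lepr level was 1.15 cycles higher on the left (SD 0.75 over 4 animals, from 0.33 to 2.01), with means of -1.28 on the left and -2.43 on the right. These Lepr values chose the gene and are descriptions.

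Cckar, Glp1r and Sctr each had a lower mean share on the left, and none of these differences passed. Each turned sign under an alternative: left minus right was 5.05 points for Cckar at the 50% limit. With single neurons alone it was 10.6 for Glp1r and 7.72 for Sctr. Cckar was in 39.0% ± 27.5 of left and 42.4% ± 24.4 of right samples, higher on the left in 5 animals and on the right in 4 (difference -3.43 points, SE 6.76, exact sign-flip permutation p 0.664). RIPC replicate 2 had Cckar in 5 of 12 left and 5 of 6 right samples. Glp1r was in 12.2% ± 10.3 and 16.6% ± 16.6 (difference -4.33 points, SE 6.41, exact permutation p 0.469). Sctr was in 16.4% ± 14.2 and 19.7% ± 19.5 (difference -3.33 points, SE 6.13, exact permutation p 0.500), and was at 0 on both sides in naive replicate 2, sham replicate 2 and RIPC replicate 3.

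The adjusted p of these 3 was 0.983 in limma, where 0 of 124 genes passed by share (0%), with 5 at an unadjusted p under 0.05. By level, 0 of 113 genes passed (0%), with 3 at an unadjusted p under 0.05. The Sctr level was lower on the left in 4 of 4 animals, by 0.13 to 1.06 cycles (difference -0.49, SE 0.35, adjusted p 0.940), and the exact permutation p of 0.125 is the smallest that 4 animals allow. The Cckar level was lower on the left in 4 of 6 animals (difference -0.61, SE 0.52, adjusted p 0.940), and the difference was -0.14 without sham replicate 1 and -1.03 without RIPC replicate 3.

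**Figure D4:**
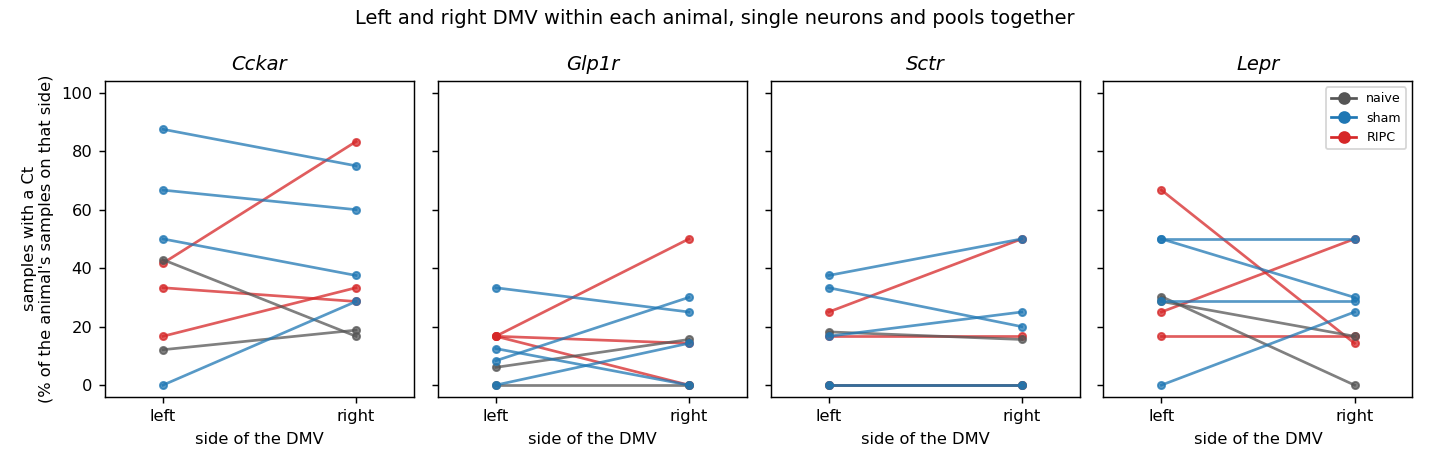
Share of samples with a Ct (percent, vertical axis) on the left and right DMV, with a line for each of the 9 animals with at least 2 samples a side, coloured by treatment. Lepr lines go down from left to right in 4 animals and up in 2, the steepest in RIPC replicate 3, while lines of Cckar, Glp1r and Sctr go both ways.

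At least 1 receptor was detected in 54 of 88 pools and 41 of 98 single neurons, and 2 or more in 34 pools (38.6%) and 13 single neurons (13.3%). At the 50% limit 32 of 63 pools (50.8%) and 8 of 22 single neurons (36.4%) had 2 or more. In pools, Cckar was present in 13 of the 14 samples with Glp1r and in 20 of the 23 with Sctr, while it was in 21 of the 31 with Lepr. Glp1r was never the only receptor of a pool, and Sctr was alone in 2. Lepr was alone in 8 pools and Cckar in 10. The phi coefficient, a correlation of detected against not detected, was 0.393 for Cckar with Glp1r, 0.467 for Cckar with Sctr and 0.135 for Glp1r with Lepr over the 88 pools. The median phi was 0.301 over the 6 pairs of receptors and 0.144 over all 7021 pairs of panel genes detected in 10% to 90% of pools.

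Of the 41 samples captured as single neurons that had a receptor, 28 had 1, 9 had 2, 3 had 3, and 1 had all 4. The neuron with all 4 was from the left DMV of RIPC replicate 1, with a Ct in 109 assays. Cckar and Glp1r shared 6 neurons, of the 21 and 11 with each (phi 0.287), and this was the highest phi among the 6 pairs. Cckar and Lepr shared 4 neurons of 21 and 17, where the product of their shares gives 3.64 (phi 0.0235). The median phi over the pairs of receptors was 0.177 in single neurons, against 0.0872 over 6786 pairs of genes. All pairs share the yield of the sample.

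Samples with more receptors had more assays with a Ct. The median number of assays was 65 in single neurons with no receptor and 73.5, 81 and 86 in those with 1, 2 and 3, and it was 74.5, 94, 105 and 110 in pools with 0, 1, 2 and 3. Pools with Glp1r all had a Ct in 91 assays or more. Among the pools at or above the median of 96 assays, phi was 0.285 for Cckar with Glp1r and 0.276 for Cckar with Sctr. Among the pools below it, phi was 0.281 and 0.575, with Glp1r in 1 and Sctr in 6 of 44 pools. The animals held joint detection unevenly: 3 or 4 receptors were found in 6 of 8 pools of RIPC replicate 2, 6 of 17 of sham replicate 4 and 4 of 11 of sham replicate 3, and in none of the 24 naive pools and none of the 11 pools of sham replicate 2.

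**Figure D5:**
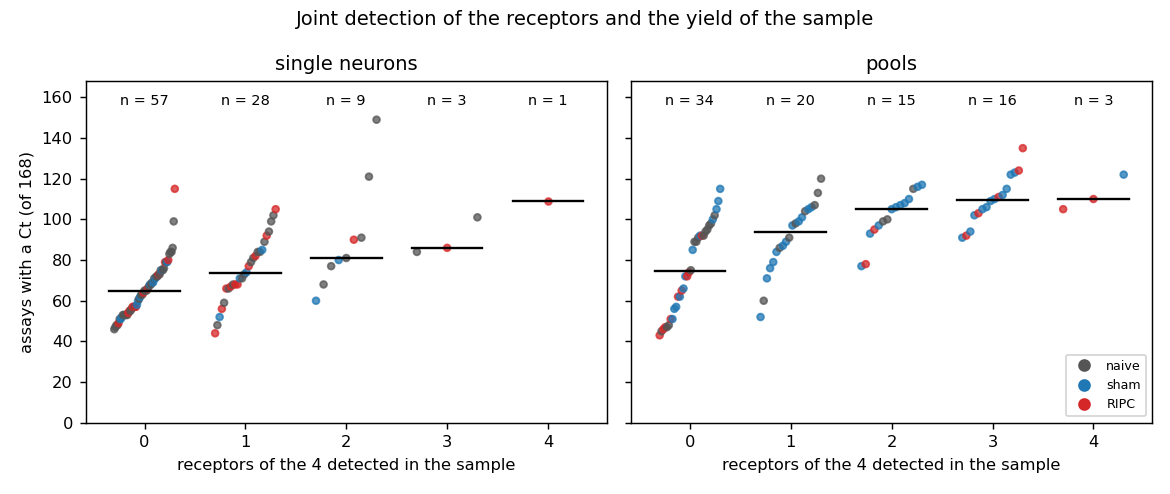
Number of assays with a Ct in each sample (vertical axis, of 168) by how many of the 4 receptors it has (horizontal axis), for single neurons and for pools, coloured by treatment; lines are medians. In pools the median goes from 74.5 assays with no receptor to 110 with 3, and in single neurons from 65 to 86.

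Most single neurons with a gut hormone receptor also had Chat: 20 of 21 with Cckar, 10 of 11 with Glp1r and 9 of 10 with Sctr, against 68 of all 98. Chat was in 11 of the 17 with Lepr. Ache, which breaks down acetylcholine, was in 19 of 21 neurons with Cckar and 10 of 11 with Glp1r, against 89 of all 98. Gfap was in 19 of 21, 9 of 11, 9 of 10 and 16 of 17 neurons with Cckar, Glp1r, Sctr and Lepr, against 79 of all 98, so that joint detection in a sample is not shown to lie within 1 cell. Th, which makes the precursor of dopamine, was in 17 of 21, 8 of 11, 7 of 10 and 13 of 17 neurons with Cckar, Glp1r, Sctr and Lepr, against 55 of all 98. Dbh, the dopamine beta hydroxylase gene, was in 5 of 21, 1 of 11, 3 of 10 and 6 of 17 of these neurons, against 20 of all 98. Neurons with a receptor also had a Ct in more assays: the median was 79 with Cckar, 80 with Glp1r, 90 with Sctr and 86 with Lepr, and 68 in the neurons without each. The part of yield in these counts was not tested. Gad1 or Gad2, which make GABA, were in 11 of 21, 7 of 11, 6 of 10 and 11 of 17 single neurons with Cckar, Glp1r, Sctr and Lepr, against 51 of all 98. The cholecystokinin gene Cck itself was in 3 of the 21 neurons with its receptor Cckar, against 22 of all 98. The glucagon gene Gcg, the source of the Glp1r ligand, was in none of the 11 with Glp1r, against 4 of all 98.

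Of the 113 other genes detected in 10% to 90% of single neurons, the one most like Lepr was Fos, the immediate-early gene of recent activity (phi 0.506, and 0.615 in naive replicate 3 alone). Fos was in 9 of the 17 single neurons with Lepr and in 5 of the 81 without it. In the left DMV of naive replicate 3 all 5 single neurons with Fos were among the 8 with Lepr, and on the right Fos was in 2 of 27 neurons and Lepr in none. Outside naive replicate 3 the phi was 0.396 over 44 neurons, and over pools it was 0.116. The somatostatin receptor Sstr3 (phi 0.428) and the serotonin receptor Htr7 (0.321) came next for Lepr.

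Cckar was most like the galanin receptor Galr1 (phi 0.462), which was in 20 of its 21 neurons and in 50 of all 98. It was followed by the substance P receptor Tacr1 (0.375) and Npffr2, a receptor for neuropeptide FF (0.366). Npffr2 also came first for Glp1r (0.386) and Sctr (0.414), with 5 shared neurons each of the 11 that had it. Glp1r was next most like the somatostatin receptor Sstr2 (0.372) and the NMDA receptor subunit Grin2a (0.284), and Sctr like the orexin receptor Hcrtr2 (0.380) and Sstr3 (0.357). The median phi over the 113 candidate genes was 0.055 for Cckar, 0.0644 for Glp1r, 0.124 for Sctr and 0.116 for Lepr. In naive replicate 3 alone all these neighbours had a phi above 0.2. That animal gave 54 of the 98 neurons on which the neighbours were chosen, so its values are no separate check. The coefficients are descriptions over 98 neurons that differ in yield.

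Of 41 other genes of gut and satiety peptides and their receptors, 24 were in the panel. The second cholecystokinin receptor, Cckbr, was in 83 of 88 pools and 70 of 98 single neurons. Relatives of Glp1r on this list were rarer than Glp1r, which was in 14 pools: Glp2r was in 7 pools and Gcgr, the glucagon receptor, in none. The ghrelin receptor Ghsr was in 18 pools and 5 single neurons. The neuropeptide Y receptors Npy2r and Npy4r were in 83 and 86 pools. Of 9 genes listed for leptin and cytokine signalling the panel held Il6r alone, the interleukin receptor, in 80 pools and 69 single neurons.

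Of these 24 genes, 16 were tested between treatments and none passed. Sham minus naive was above 0 for 8 of the 16, with a median of -0.69 points, beside 7.87 over all 119 genes. Pools against single neurons gave 4 higher and 0 lower of 19 tested, namely Grpr, Npy4r, Trhr and Cckbr, beside 22 of 124 (17.7%) over all genes. The median difference was 18.8 points beside 15.9 over all genes. Grpr, the gastrin-releasing peptide receptor, had the largest of these differences, 41.6 points (SE 9.42, adjusted p 0.0101 in limma). Pools hold more neurons, and the part of cell number in it was not tested. Left against right gave none of 19 by share and none of 11 by level.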

How the data were processed

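RNA of laser-captured DMV neurons was reverse transcribed, preamplified and measured on a BioMark microfluidic chip. The authors deposited raw Ct values without normalization, and a missing value is a Ct below detection. The table held 218 columns, 168 assays and 165 genes, and all 165 symbols matched RefSeq symbols, case ignored. Assays of the same gene and the 5 second runs were averaged, a Ct in either counting as detected. Samples with a Ct in at least 25% of the assays were used, which keeps 190 columns, the number the study's methods count. Those methods also state a stricter rule, a Ct in at least 50% of the assays; this limit, which turns several signs, and no limit were alternatives. No source used here says which chip a sample was run on, so chips could not be tested.

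The animal was the replicate. Shares (percent of an animal's samples with a Ct) and levels were fitted with limma 3.58.1 in R 4.3.3 over all genes detected in 10% to 90% of the samples used, two-sided, with Benjamini-Hochberg adjustment at 0.05. The fits were tested on simulated data. Exact permutation tests over animals (two-sided, 15 tests, unadjusted) stand beside them. The members, gene lists and tests were chosen with earlier results of these data known. Named genes are the members, the 3 genes with the highest phi for each, the members of 2 lists of peptide and leptin signalling genes, and cell type markers (Camk2a, Chat, Ache, Gad1, Gad2, Th, Dbh and Gfap).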

Additional observations from a re-analysis of the deposited data

How the results depend on the processing

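No gene passed by share for sham against naive, RIPC against sham or left against right, nor by level for RIPC against sham or left against right, under any alternative run; by level for sham against naive the count was 0 to 1 when animals were left out. For pools against single neurons the count went from 22 to 0 at the 50% limit, which leaves 2 animals, and ranged from 5 to 56 when animals were left out. The exact tests with p under 0.05 went from 1 to 0 at the 50% limit, with no limit and on the arcsine scale, and ranged from 0 to 1 when animals were left out. The causes were not tested.

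At the 50% limit Cckar was in 60.3% and Lepr in 46.0% of pools, and 50.8% of pools had 2 or more receptors. Among single neurons Cckar was then in 31.8%, Sctr in 31.8% and Lepr in 54.5%, and 36.4% had 2 or more. Without naive replicate 3, chosen after seeing the data, Cckar was in 31.8%, Glp1r in 11.4%, Sctr in 2.27% and Lepr in 20.5% of single neurons, and 11.4% had 2 or more. Taking a Ct above 20 as not detected, or leaving out the single neuron titled like another animal's, both also chosen after seeing the data, left all these shares within their intervals.

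Differences that turned sign, none of them called, are in percentage points of share. At the 50% limit Lepr was -2.25 for sham minus naive, and for RIPC minus sham Cckar was 17.1, Sctr 28.3 and Lepr 25.6. At that limit pools minus single neurons gave Cckar -4.70, Glp1r -18.8, Sctr -10.9 and Lepr -22.6, and left minus right gave Cckar 5.05. With single neurons alone, Sctr was -8.33 for sham minus naive, Sctr 8.33 and Lepr 18.5 for RIPC minus sham, and Glp1r 10.6 and Sctr 7.72 for left minus right. Pools alone gave Cckar 9.86 for left minus right. For RIPC minus sham, Sctr was 8.45 with animals weighted by pools. On the arcsine scale, which is not in percentage points, its sign also turned (0.0314).

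Leaving out animals, sham minus naive ran from 36.1 to 60.8 for Cckar, 7.84 to 22.1 for Glp1r, 20 to 35.1 for Sctr and 5.40 to 18.8 for Lepr, and RIPC minus sham from -28.5 to 9.05 for Cckar, -18.9 to 12.4 for Glp1r, -24.7 to 12.8 for Sctr and -8.49 to 11.9 for Lepr, pools minus single neurons from 6.03 to 20.9 for Cckar, -3.78 to 9.91 for Glp1r, 9.60 to 22.1 for Sctr and 13.1 to 20.1 for Lepr, and left minus right from -7.14 to 1.34 for Cckar, -6.95 to -0.70 for Glp1r, -5.41 to -0.62 for Sctr and 1.53 to 11.2 for Lepr. All adjusted p of the tested receptors stayed above 0.05 but for Lepr in pools against single neurons without RIPC replicate 1 (0.0454, in a range of 0.0454 to 0.792).

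Animal numbers name different rats. Same-numbered animals' deviations correlated from -0.325 to 0.335 across genes in 9 pairs, 5 of them above 0.1, and 4 correlated best with their own number. Between animals numbered 1 the correlations were 0.222, 0.274 and 0.137, each the best with their own number. A batch shared by same-numbered animals was not tested beyond a fit with the number as a block. With the animal number as a replicate block, 0 genes passed by share and 0 by level in both contrasts, and RIPC minus sham for Lepr was 2.44.

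In the 5 single neurons run again, 47.2% of the assays with a Ct in either run had one in both, and no pool was run again. Between treatments no receptor had enough animals for the main test of levels.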
